A study of Homo sapiens with 4 samples.

Results

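The difference between 2 prostate cancer lines in their response to OICR-9429 was described gene by gene. For each gene the difference of log2(CPM + 1) between the OICR-9429 library and the DMSO library was taken in PC-3, and the same difference in DU145 was subtracted from it. The value is called the difference of the response here, and 1 on its scale is 2-fold. A positive value means that the gene stood higher after OICR-9429, relative to DMSO, in PC-3 than in DU145, and a negative value means the reverse. Of 27658 genes listed in either line, 20993 were listed in both, and 13566 of these reached at least 1 CPM, a scale that sets the reads of every library to 1 total, in a library of each line and are described.

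Both lines are established human prostate cancer lines that grow without androgen, DU145 from a brain metastasis and PC-3 from a bone metastasis. OICR-9429 is a small molecule that occupies the pocket of WDR5 into which MLL-family methyltransferases and other partners insert a short arginine-containing motif. WDR5 is a scaffold of complexes that methylate lysine 4 of histone H3. Each line was treated for 48 h with the solvent DMSO or with OICR-9429 dissolved in it, at 120 µM for DU145 and at 150 µM for PC-3. The resulting 4 groups hold 1 library of total RNA each. DU145 was grown in DMEM and PC-3 in RPMI1640, so the line, the dose and the medium cannot be told apart in any value below. With 1 library a group the differences have no replicate check. The 4 libraries leave 0 residual degrees of freedom for a model of line, treatment and their interaction, so no test of the difference could be fitted and no p-value is given.

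The deposited CPM values were whole multiples of 1 step in every library, from which 27591000 to 29312000 fragments per library were recovered. Intervals on ratios below come from these fragments, have no pseudocount, and cover counting error only, since the labels name no molecular identifiers. A count of 3 fragments corresponded to 0.102 to 0.109 CPM. Both lines carried epithelial marker RNA, summing to 764 to 1270 CPM per library over KRT8, KRT18, KRT19 and EPCAM, and leukocyte markers summed to 0.853 to 4.10 CPM. KLK2 and KLK3, prostate secretory proteases, were listed in neither line. Where 2 values are given for a line, the DMSO value stands before the OICR-9429 value.

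Several of the pathways described below have well-known wiring. Sensors of viral and self nucleic acids induce type I interferon, which acts through JAK kinases on a complex that holds STAT2 and IRF9, which binds interferon-stimulated response elements and turns on antiviral effectors. The integrated stress response begins with phosphorylation of eIF2α under amino acid shortage or misfolded protein, and runs through the factors ATF4 and DDIT3. Messenger RNAs of ribosomal proteins begin with a run of pyrimidines that couples their translation and stability to growth signalling.

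The response differed widely in size and mostly in the positive direction on the deposited scale. The difference of the response had a median of 0.12 over the 13566 genes, an interquartile range of −0.37 to 0.63 and a range of −4.40 to 5.17. It was at least 1 for 1861 genes (13.7%) and at most −1 for 930 (6.86%), while 284 (2.09%) reached 2 and 102 (0.752%) reached −2. Counts of list members at 1 or above and at −1 or below are to be read against 13.7% and 6.86%. This split depends on the scale. With TMM scaling, which sets aside the most different genes when libraries are made comparable, 1442 genes lay at 1 or above and 1347 at −1 or below, and with median-of-ratios scaling 1316 and 1494. These scalings moved the median of the difference by −0.17 and −0.22, the DU145 change by 0.19 and 0.24 and the PC-3 change by 0.03 and 0.02, so differences of the size of the list medians near 0 cannot be given a direction.

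PC-3 carried most of the genes in which 1 line alone passed 2-fold. Of the 1861 genes at 1 or above, 686 were at least 2-fold higher with OICR-9429 in PC-3 alone, 334 were at least 2-fold lower in DU145 alone, and 49 did both. Neither line passed 2-fold for 781 of them, whose difference was summed from smaller changes of opposite sign. Of the 930 genes at −1 or below, 500 were at least 2-fold lower in PC-3 alone, 45 were at least 2-fold higher in DU145 alone, 15 did both, and 72 were at least 2-fold lower in both lines but more so in PC-3. In PC-3, 932 genes (6.87%) stood at least 2-fold higher and 1136 (8.37%) at least 2-fold lower with OICR-9429, against 137 (1.01%) and 861 (6.35%) in DU145. Counts of list members past 2-fold within a line are to be read against these shares.

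**Figure D1:**
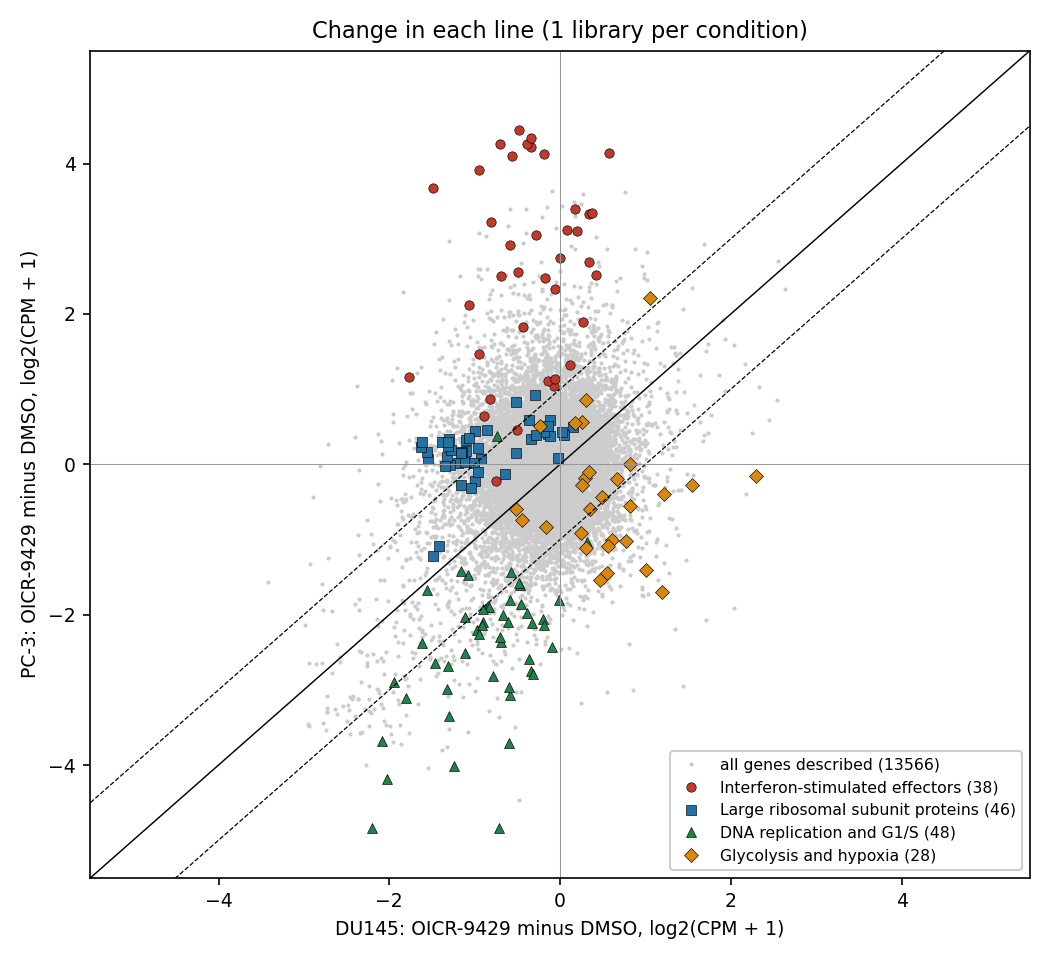
Change with OICR-9429 (log2 of CPM + 1, treated minus DMSO) in DU145 on the x axis and in PC-3 on the y axis, 1 point per gene, with 4 gene lists coloured over all 13566 genes in grey. The solid line marks equal change and the dashed lines a difference of 1; the 38 interferon effectors lie above the solid line, and most of the 48 replication genes lie under it.

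Interferon-stimulated effectors held many of the highest values. Of the 44 genes listed as effectors, 38 were members, and 36 of these differed by at least 1, against 13.7% of all members, with none at −1 or below. Their median difference was 2.98, against 0.12 over all members. In PC-3 34 of the 38 stood at least 2-fold higher with OICR-9429, against 6.87% of all members, with a median change of 2.71. In DU145 none stood 2-fold higher and 3 stood 2-fold lower, against 1.01% and 6.35% of all members. The median change there was −0.34. Under the other scalings the median difference was 2.87 and 2.81.

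Many effector promoters carry the response element in the bases before the start. To show it, 7 effectors with a strong difference and the sensor gene IFIH1 are given with 25 bases before the match and 25 after it, from the RefSeq promoter windows of GRCh38.p14. Capitals mark the match to 2 copies of GAAA that lie 2 bases apart (GAAANNGAAA, or TTTCNNTTTC when read on the other strand), and each line runs along the strand of its gene.
BST2: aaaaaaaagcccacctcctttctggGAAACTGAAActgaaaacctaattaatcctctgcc
MX1: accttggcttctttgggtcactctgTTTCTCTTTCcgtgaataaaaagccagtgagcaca
IFI6: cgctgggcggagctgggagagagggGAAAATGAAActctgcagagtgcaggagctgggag
IFI27: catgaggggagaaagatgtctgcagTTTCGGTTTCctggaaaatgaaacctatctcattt
IFIT1: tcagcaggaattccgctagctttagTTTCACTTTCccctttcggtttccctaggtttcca
HERC5: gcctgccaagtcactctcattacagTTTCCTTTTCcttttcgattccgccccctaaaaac
IFIH1: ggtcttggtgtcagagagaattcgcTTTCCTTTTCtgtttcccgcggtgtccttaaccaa
ISG15: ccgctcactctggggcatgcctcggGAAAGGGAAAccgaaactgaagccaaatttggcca

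These stretches lie at chr19:17405726-17405785 on the minus strand for BST2, chr21:41431829-41431888 on the plus strand for MX1, chr1:27672314-27672373 on the minus strand for IFI6 and chr14:94110603-94110662 on the plus strand for IFI27. Those of IFIT1, HERC5, IFIH1 and ISG15 lie at chr10:89392482-89392541 (plus), chr4:88456969-88457028 (plus), chr2:162318809-162318868 (minus) and chr1:1013359-1013418 (plus). Promoter windows of 250 bases before to 50 after a start were matched by symbol for 10242 of the 13566 members (75.5%), and a gene with several starts was counted when any of its windows held the motif. GAAANNGAAA on either strand was in 24 of the 31 effectors with a window (77.4%), against 396 of the 10242 matched genes (3.87%). The effectors with and without a match had the same median difference, 2.99. Among matched genes the motif was in 19 of the 50 with the highest difference, in 0 of the 50 with the lowest, in 33 of 217 at 2 or above (15.2%) and in 1 of 76 at −2 or below. A match says that these letters are present and no more.

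BST2 (ENSG00000130303), a membrane protein that tethers budding virus particles to the cell, had the highest difference of any member at 5.17. It was at 2.21 then 0.141 CPM in DU145 and 0.102 then 13.1 CPM in PC-3, which rests on 61, 4, 3 and 365 fragments. Over the alternatives its difference ran from 2.32 to 9.29, against 4.65 to 4.99 for MX1, so its place as the highest depends on the setting. DU145 with DMSO and PC-3 with OICR-9429 were the high libraries, and the ratio of the 2 treated-to-DMSO ratios was 2017 with a counting interval of 381 to 17810. OASL (ENSG00000135114), an oligoadenylate synthetase relative that binds RNA sensors, was at 70.9 then 43.2 CPM in DU145 and 7.61 then 163 CPM in PC-3, a difference of 4.95. It was lower in PC-3 than in DU145 with DMSO and higher with OICR-9429, with a ratio of ratios of 35.2 (30.1 to 41.1). MX1 (ENSG00000157601), a GTPase that traps viral nucleoproteins, was at 55.4 then 39.5 CPM in DU145 and 20.3 then 463 CPM in PC-3. Its difference was 4.92 and its ratio of ratios 32.0 (28.6 to 35.9). IFI6 (ENSG00000126709), a small mitochondrial protein of the same programme, had the same shape at 83.3 then 42.6 CPM in DU145 and 10.3 then 169 CPM in PC-3, a difference of 4.87.

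The oligoadenylate synthetases, which make the messenger that activates RNase L, differed in their starting level from MX1. OAS2 (ENSG00000111335) was at 5.18 then 3.90 CPM in DU145 and 26.9 then 564 CPM in PC-3, so that PC-3 was already the higher line with DMSO, and its difference was 4.68. OAS1 was at 5.29 then 3.80 CPM in DU145 and 11.0 then 228 CPM in PC-3, with a difference of 4.65. OAS1, OAS3 and OAS2 are neighbours on chromosome 12. IFI27 (ENSG00000165949), another mitochondrial effector, was low in 3 libraries and at 25.4 CPM in treated PC-3, against 3.01 and 1.72 CPM in DU145 and 0.546 CPM in PC-3 with DMSO. Its ratio of ratios was 81.2 (42.8 to 159).

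Treated PC-3 was the highest library for other effectors that bind viral RNA or modify proteins as well. IFIT1 (ENSG00000185745), which binds uncapped viral RNA, was at 62.7 then 55.0 CPM in DU145 and 18.9 then 345 CPM in PC-3, a difference of 4.31. ISG15, a ubiquitin-like protein, lay at 109.64 then 90.1 CPM in DU145 and 100.1 then 833 CPM in PC-3, a difference of 3.32. HERC5, the ligase that attaches ISG15 to proteins, was at 72.8 then 41.3 CPM in DU145 and 8.70 then 89.4 CPM in PC-3, a difference of 4.02. Its neighbours on chromosome 4, HERC6 and PPM1K, differed by 3.5 and 2.24. GBP4 (ENSG00000162654), an interferon-induced GTPase, was at 1.81 then 0.141 CPM in DU145 and 1.84 then 21.2 CPM in PC-3. The lines were close for GBP4 with DMSO and lay in opposite directions with OICR-9429, with a ratio of ratios of 148 (50.8 to 584).

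MX2 and HSH2D completed the highest values of this class. MX2, a GTPase that blocks nuclear import of viral genomes, lay at 9.31 then 7.14 CPM in DU145 and 3.82 then 89.2 CPM in PC-3, a difference of 4.57. HSH2D (ENSG00000196684), an adaptor protein known from haematopoietic cells, lay at 5.47 then 2.36 CPM in DU145 and 1.77 then 22.4 CPM in PC-3, a difference of 4.02. For each of them DU145 was the higher line with DMSO and PC-3 the higher line with OICR-9429.

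Transcription factors of the interferon pathway showed positive differences, most of them smaller than the effector median. IRF7, which drives interferon genes, was at 50.9 then 26.1 CPM in DU145 and 45.5 then 281 CPM in PC-3, a difference of 3.54. STAT2 and IRF1 differed by 1.85 and 1.45. IRF9, the DNA-binding partner of STAT2, was low in every library at 0.703 to 7.16 CPM, with a difference of 1.99 that dropped under 1 with a pseudocount of 5. The kinase gene JAK1 differed by 0.63. Of the 18 members among 24 interferon ligands, receptors and signalling genes, 7 lay at 1 or above and none at −1 or below, with a median of 0.74.

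Some sensors of nucleic acids had positive differences. IFIH1 (ENSG00000115267), the sensor of long double-stranded RNA, was at 23.1 then 21.6 CPM in DU145 and 11.8 then 158 CPM in PC-3, a difference of 3.73. IFI16, which binds DNA, was at 12.4 then 18.5 CPM in DU145 and 19.5 then 148 CPM in PC-3, a difference of 2.32. Treated PC-3 was the highest library for both. ADAR, which edits double-stranded RNA, was at 760 then 748 CPM in DU145 and 453 then 896 CPM in PC-3 and differed by 1.00, a value under 1 with either other scaling. Of the 11 sensor and adaptor members, 4 lay at 1 or above, against 13.7% of all members, with a median of 0.39.

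Genes of MHC class I antigen presentation, which loads peptides for cytotoxic T cells, also stood higher in the PC-3 response. Of 20 members, 15 differed by at least 1, against 13.7% of all members, and none by −1 or below, with a median of 1.18. The count was 10 with TMM scaling and 9 with median-of-ratios scaling. PSMB9, a subunit of the immunoproteasome that cuts such peptides, was at 30.6 then 12.4 CPM in DU145 and 3.68 then 11.2 CPM in PC-3. Its difference was 2.62, and the 2 treated libraries ended close together after a gap with DMSO. HLA-F, a class I gene of restricted function, had the same shape at 22.6 then 9.32 CPM in DU145 and 1.60 then 5.86 CPM in PC-3, a difference of 2.59. TAP1, part of the peptide transporter and a neighbour of PSMB9 and PSMB8 on chromosome 6, was at 115 then 80.3 CPM in DU145 and 38.0 then 125 CPM in PC-3. HLA-B (ENSG00000234745), a classical presenting molecule, was at 245 then 168 CPM in DU145 and 22.2 then 61.0 CPM in PC-3. Its gap between the lines narrowed from −3.41 with DMSO to −1.45 with OICR-9429, a difference of 1.96 with a ratio of ratios of 4.0 (3.62 to 4.42). HLA-C and B2M differed by 1.80 and 1.16, and TAP2 by −0.39. Reads of the class I genes can be shared between them because their sequences are alike, so the split among them is uncertain. The response element motif was in 11 of the 16 class I presentation members with a promoter window (68.8%), against 3.87% of matched genes. Members with the motif had a lower median difference, 1.03, than members without it, 1.80.

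The immune checkpoint ligands, which restrain or costimulate T cells, had no common direction. The 10 members of 18 had a median difference of 0.16, which turned to −0.00 and −0.06 under the other scalings, and 3 lay at 1 or above. On the deposited scale none lay at −1 or below, and under either other scaling 1 did. CD274, which encodes PD-L1 and is named in the study's title, was at 27.4 then 29.2 CPM in DU145 and 18.5 then 9.50 CPM in PC-3. Its difference was −0.98, with −1.20 as the lowest value among the alternatives. PC-3 was the lower line in both conditions, and the ratio of ratios was 0.482 (0.402 to 0.577). BTN3A1, TNFRSF14 and BTN3A2 differed by 1.91, 1.54 and 1.26. The target of the compound, WDR5, was at 88.8 then 83.5 CPM in DU145 and 62.2 then 37.6 CPM in PC-3, a difference of −0.62.

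Inflammatory targets of NF-kB had mostly positive differences. SOD2 (ENSG00000112096), the mitochondrial superoxide dismutase, was at 801 then 437 CPM in DU145 and 170 then 1399 CPM in PC-3. Its difference was 3.91 with a ratio of ratios of 15.1 (14.5 to 15.7), and the line with the higher level swapped with treatment. CCL20, a chemokine that draws memory lymphocytes, was at 29.6 then 4.89 CPM in DU145 and 2.90 then 7.01 CPM in PC-3, a difference of 3.42. IL6, the cytokine, was at 25.8 then 9.98 CPM in DU145 and 31.7 then 74.4 CPM in PC-3, a difference of 2.49 with a ratio of ratios of 6.07 (5.17 to 7.13). Both were lower with OICR-9429 in DU145 and higher in PC-3. RELB, an NF-kB subunit, differed by 2.0. The chemokine CXCL1 and the growth factor CSF2 lay on the other side at −1.90 and −1.03. In all 9 of 24 members were at 1 or above, against 13.7% of all members, and 2 at −1 or below, against 6.86%, with a median of 0.84.

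Classical complement proteases stood apart in the same direction. C1S (ENSG00000182326), the protease that cleaves C4 and C2, was at 20.4 then 4.96 CPM in DU145 and 4.95 then 28.2 CPM in PC-3. The 2 lines exchanged places almost exactly, a difference of 4.14 with a ratio of ratios of 23.5 (18 to 30.6). C1R, the protease that activates C1S, was at 17.6 then 5.94 CPM in DU145 and 18.2 then 49.6 CPM in PC-3, a difference of 2.82. C3, the central component, was at 148 then 33.6 CPM in DU145 and 33.0 then 40.9 CPM in PC-3, so that its difference of 2.41 came mostly from DU145. C1RL differed by 2.03. C1S, C1R and C1RL are neighbours on chromosome 12. Of 9 members of the complement list, 6 lay at 1 or above and none at −1 or below, with a median of 1.84, and this list was drawn up after values had been seen.

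Of 39 integrated stress response members 23 stood at least 2-fold higher with OICR-9429 in PC-3 and none in DU145. Over all members these shares were 6.87% and 1.01%, so few would be looked for in DU145 in any list of this size. By the difference of the response, 21 of the 39 lay at 1 or above and none at −1 or below on the deposited scale, with 17 at 1 or above and 1 at −1 or below under either other scaling. The median change was 1.24 in PC-3 and 0.06 in DU145, and on the deposited scale 24 of the 39 were at least 2-fold lower in PC-3 than in DU145 with DMSO. DDIT3 (ENSG00000175197), the factor CHOP that promotes death under stress, was at 19.1 then 17.1 CPM in DU145 and 5.90 then 73.2 CPM in PC-3. Its difference was 3.58 with a ratio of ratios of 13.9 (11.3 to 17.0). DDIT4, an inhibitor of mTORC1, was at 112 then 85.0 CPM in DU145 and 7.30 then 86.6 CPM in PC-3, which moved the gap between the lines from −3.77 to 0.03. GDF15, a secreted stress hormone, was at 3.26 then 3.34 CPM in DU145 and 51.3 then 563 CPM in PC-3, a difference of 3.40. NUPR1 (ENSG00000176046), a stress-induced chromatin protein, was at 13.8 then 8.82 CPM in DU145 and 20.4 then 224 CPM in PC-3, a difference of 3.99. ASNS (ENSG00000070669), asparagine synthetase, was at 325 then 324 CPM in DU145 and 1.09 then 6.48 CPM in PC-3. Its difference of 1.84 sat on a gap of −7.28 between the lines with DMSO, and dropped under 1 with a pseudocount of 5.

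Chaperone genes had smaller or negative differences. The unfolded protein response list held 22 members with 6 at 1 or above, against 13.7% of all members, and a median of 0.41. Its highest, ERN1, the endoplasmic reticulum sensor IRE1, was at 67.3 then 76.3 CPM in DU145 and 63.6 then 469 CPM in PC-3, a difference of 2.69. Among 16 heat shock members 1 lay at 1 or above and 3 at −1 or below, with a median of −0.75. The shares of all members were 13.7% and 6.86%. Under the other scalings none lay at 1 or above, and 6 and 8 lay at −1 or below. HSP90AA1, the inducible cytosolic HSP90, was at 1196 then 1499 CPM in DU145 and 2778 then 1026 CPM in PC-3, a difference of −1.76. HSPA8, the constitutive HSP70 of the cytosol, was at 257 then 646 CPM in DU145 and 1359 then 1063 CPM in PC-3, a difference of −1.68. For both, PC-3 was the higher line with DMSO.

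Iron storage, autophagy and lysosome genes had mostly positive differences. FTH1, the heavy chain of ferritin, was at 450 then 528 CPM in DU145 and 1647 then 8426 CPM in PC-3, a difference of 2.13. The light chain gene FTL was at 1154 then 1321 CPM in DU145 and 582 then 2362 CPM in PC-3, a difference of 1.83. TFRC, the transferrin receptor that brings iron in, was at 372 then 688 CPM in DU145 and 659 then 360 CPM in PC-3, a difference of −1.76. The storage genes and the uptake gene lay on opposite sides. Ferritin genes have many processed pseudogenes, so their levels are uncertain where reads were shared. SQSTM1, the autophagy receptor p62, was at 485 then 948 CPM in DU145 and 500 then 3126 CPM in PC-3, a difference of 1.68. OPTN, another autophagy receptor, lay at 175 then 190 CPM in DU145 and 51.9 then 197 CPM in PC-3, a difference of 1.79 that brought the lines level. CTSD, a lysosomal protease, was at 86.4 then 63.8 CPM in DU145 and 62.4 then 206 CPM in PC-3, a difference of 2.14. Of 36 autophagy and lysosome members 15 lay at 1 or above and none at −1 or below, with a median of 0.83, and 2 lay at −1 or below under either other scaling. The wider NRF2 and iron list had 8 of 26 members at 1 or above and 1 at −1 or below, and its median of 0.02 turned to −0.13 and −0.19 under the other scalings.

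Most large ribosomal subunit genes stood lower with OICR-9429 in DU145 and close to DMSO in PC-3. All 46 large subunit members lay above 0 and 26 reached 1, with none at −1 or below. Their median change was −1.02 in DU145 and 0.22 in PC-3, and the DU145 median came to −0.85 and −0.79 under the other scalings. On the deposited scale 25 of the 46 were at least 2-fold lower in DU145. The count at 1 or above was 23 and 20 under the other scalings. Of the 32 small subunit members 10 reached 1, with a median of 0.82. Their DU145 change was smaller, with 10 of 32 at least 2-fold lower and a median of −0.46, which came to −0.28 and −0.22 under the other scalings. Over the 78 ribosomal protein genes the median difference was 0.92, against 0.05 over 4658 other protein-coding genes of like length and level.

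The start of ribosomal protein transcripts is shown for 5 of these genes as the genome reads there, with 30 bases before the first annotated base and 15 from it on. Capitals mark the unbroken run of pyrimidines that begins at the first annotated base.
RPL36: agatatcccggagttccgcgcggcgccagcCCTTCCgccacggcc
RPL34: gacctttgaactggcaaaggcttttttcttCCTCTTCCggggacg
RPL11: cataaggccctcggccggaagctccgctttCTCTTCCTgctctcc
RPS18: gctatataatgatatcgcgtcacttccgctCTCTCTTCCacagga
RPL29: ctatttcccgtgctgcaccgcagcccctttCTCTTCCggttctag

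These windows are RefSeq's in GRCh38.p14, at chr19:5690265-5690309 (plus strand) for RPL36, chr4:108620546-108620590 (plus) for RPL34, chr1:23691776-23691820 (plus) for RPL11, chr6:33272045-33272089 (plus) for RPS18 and chr3:51995881-51995925 (minus) for RPL29. The runs are 6, 8, 8, 9 and 7 bases long. A start of this kind, a C followed by at least 4 more pyrimidines, was in 28 of the 38 large subunit members with a window (73.7%), against 754 of the 10242 matched genes (7.36%). The 47 ribosomal protein genes with such a start had a median difference of 1.15 and the 16 without had 0.87. The 707 other genes with such a start had a median of 0.24, against 0.09 for the 9488 genes without one.

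RPL36 (ENSG00000130255), a large subunit protein, was at 200 then 64.0 CPM in DU145 and 219 then 256 CPM in PC-3. DU145 with OICR-9429 was the low library, the lines were close with DMSO, and the difference was 1.86 with a ratio of ratios of 3.66 (3.44 to 3.90). RPL37 had the highest difference of the large subunit at 1.91, from 857 then 280 CPM in DU145 and 206 then 254 CPM in PC-3. RPL11, which also binds MDM2 when ribosome assembly fails, was at 416 then 159 CPM in DU145 and 307 then 379 CPM in PC-3, a difference of 1.68. RPL34 and RPL29 differed by 1.73 and 1.61, and RPS18 and RPS24 of the small subunit by 1.65 and 1.37. Many ribosomal protein genes have processed pseudogenes, and the sources used here do not say how shared reads were counted.

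Transcripts that host small nucleolar RNAs in their introns also had mostly positive differences. The pyrimidine start was in 5 of 13 of them with a window (38.5%), and the median difference was 1.34 with it and 1.38 without. Of 15 members in a list drawn up after values had been seen, 11 lay at 1 or above, with a median of 1.34. GAS5 (ENSG00000234741) was at 443 then 196 CPM in DU145 and 38.7 then 79.3 CPM in PC-3, a difference of 2.19 with a ratio of ratios of 4.64 (4.28 to 5.02). DU145 was the higher line in both conditions and the lines drew together. EPB41L4A-AS1 and SNHG32 differed by 2.28 and 2.15. SNHG8 was at 50.4 then 16.1 CPM in DU145 and 7.16 then 13.6 CPM in PC-3, a difference of 2.42.

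Translation factors and ribosome biogenesis genes differed less or in the negative direction. EEF2, the translocation factor, was at 3805 then 1817 CPM in DU145 and 1473 then 2115 CPM in PC-3, a difference of 1.59. EIF5A, which relieves stalled ribosomes, was at 164 then 205 CPM in DU145 and 219 then 85.7 CPM in PC-3, a difference of −1.67, and EIF4E, the cap-binding protein, differed by −1.28. EIF4B, an initiation factor, differed by 1.39. Of 27 translation factor members, a list drawn up after values had been seen, 18 lay above 0, 2 at 1 or above and 5 at −1 or below, with a median of 0.22. Of 31 ribosome biogenesis members none lay at 1 or above and 9 at −1 or below, with a median of −0.80. The 9 became 15 and 16 under the other scalings. POLR1A, the large subunit of RNA polymerase I, was at 55.2 then 83.3 CPM in DU145 and 175 then 83.8 CPM in PC-3, and the lines met in the treated libraries. NCL, the nucleolar protein nucleolin, was at 441 then 552 CPM in DU145 and 1219 then 535 CPM in PC-3, a difference of −1.51.

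**Figure D2:**
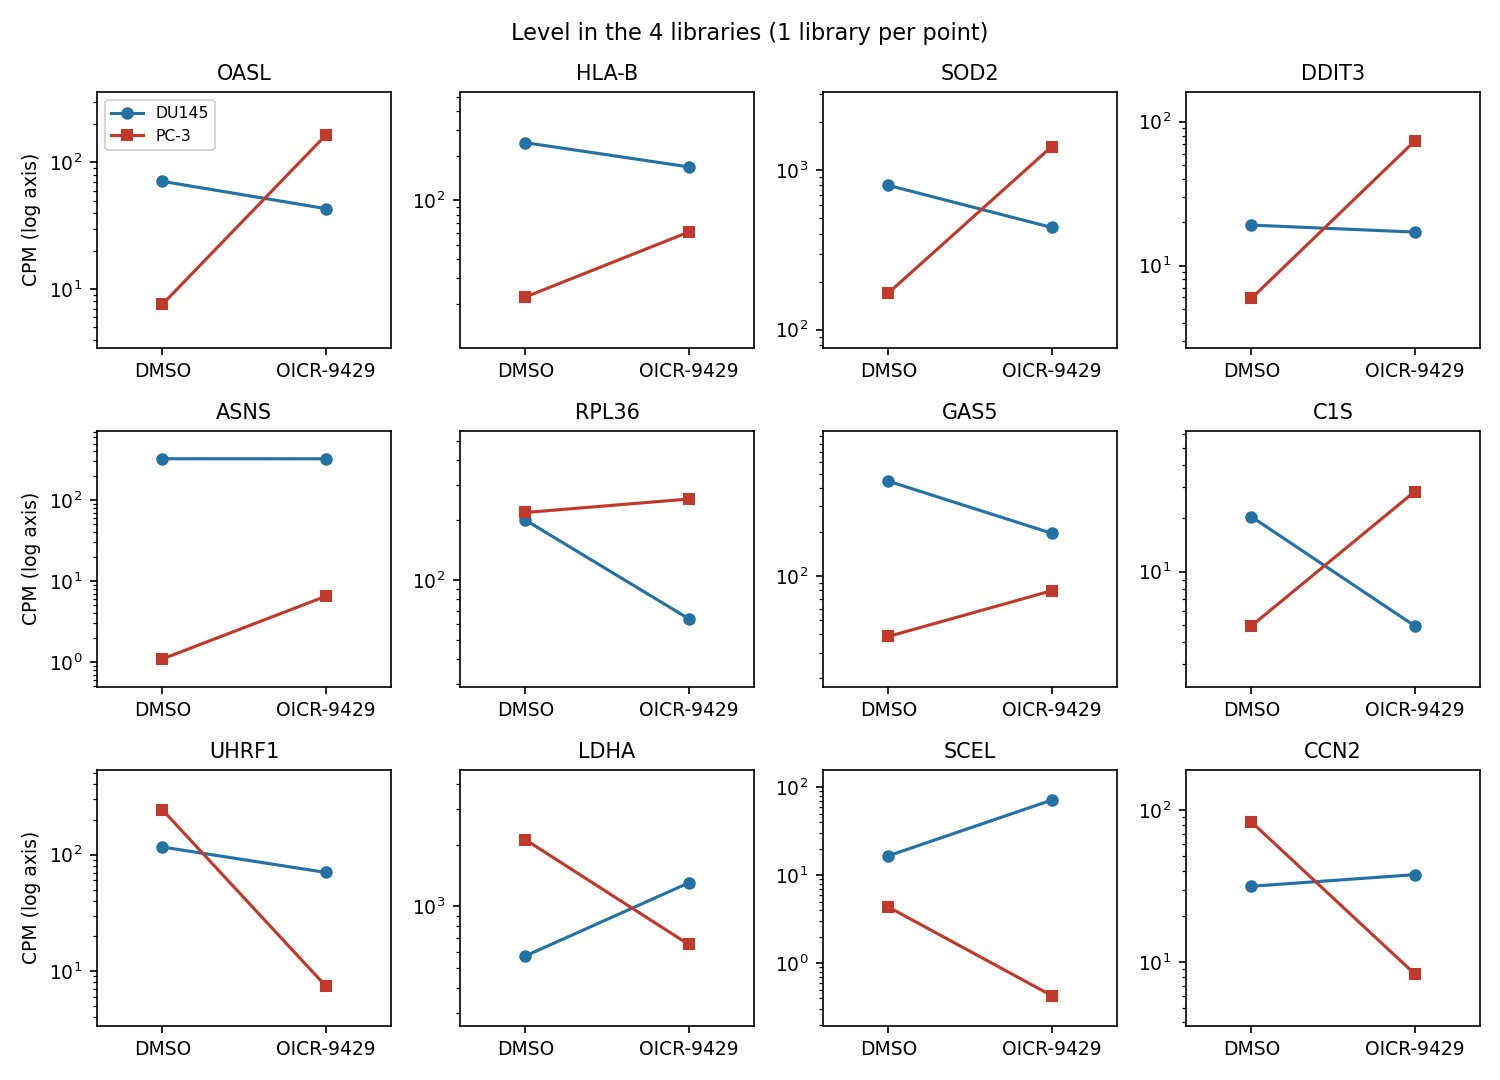
Level of 12 genes in the 4 libraries (CPM, logarithmic axis), with DMSO and OICR-9429 on the x axis, DU145 as blue circles and PC-3 as red squares, 1 library per point. The lines cross between DMSO and OICR-9429 for OASL, SOD2, DDIT3, C1S, UHRF1, LDHA and CCN2. DU145 stays above PC-3 for HLA-B, ASNS, GAS5 and SCEL, and PC-3 stays above DU145 for RPL36.

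DNA replication genes stood lower with OICR-9429 in both lines and further in PC-3. Of 48 members 40 differed by −1 or below, against 6.86% of all members, and 1 lay at 1 or above, with a median of −1.40. In PC-3 47 of the 48 were at least 2-fold lower, against 16 in DU145, and the median changes were −2.23 and −0.76. UHRF1 (ENSG00000276043), which keeps DNA methylation through replication, was at 116 then 70.3 CPM in DU145 and 242 then 7.48 CPM in PC-3. Its difference was −4.12, and its ratio of ratios 0.0511 (0.0438 to 0.0593). FAM111B (ENSG00000189057), a protease of replicating cells, was at 32.0 then 22.7 CPM in DU145 and 55.2 then 1.55 CPM in PC-3, a difference of −3.99. PC-3 was the higher line for both with DMSO and the lower line with OICR-9429. CDC25A (ENSG00000164045), the phosphatase that opens S phase, was at 14.8 then 9.39 CPM in DU145 and 51.6 then 3.02 CPM in PC-3, a difference of −3.11. RRM2, the regulated subunit of ribonucleotide reductase, was at 199 then 42.3 CPM in DU145 and 138 then 3.85 CPM in PC-3, low in both treated libraries, with a difference of −2.63. MCM10 (ENSG00000065328), an origin-firing factor, differed by −2.76, and E2F1, the activator of this gene class, by −2.04. The repressor of that class E2F7 lay on the other side at 1.12.

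Mitotic genes differed less between the lines, although they stood further from DMSO in each. Of 51 members 50 were at least 2-fold lower in PC-3 and 50 in DU145, with median changes of −3.0 and −2.24, and 16 differed by −1 or below with a median of −0.75. The 16 became 22 and 23 under the other scalings. MKI67, the proliferation antigen, was at 486 then 100 CPM in DU145 and 472 then 28.7 CPM in PC-3, a difference of −1.73. CCNB1, the mitotic cyclin, was at 138 then 26.6 CPM in DU145 and 143 then 24.4 CPM in PC-3, and its difference was −0.17. CDC25B, a mitotic phosphatase, ran against the list at 159 then 74.4 CPM in DU145 and 251 then 407 CPM in PC-3, a difference of 1.78. Of 30 homologous recombination and Fanconi anaemia members 12 lay at −1 or below and none at 1 or above, with XRCC2, EXO1 and RAD54L at −1.95, −1.86 and −1.76.

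Inhibitors of the cell cycle and histone genes had positive differences. CDKN2B, the inhibitor p15, was at 31.7 then 23.2 CPM in DU145 and 54.0 then 423 CPM in PC-3, a difference of 3.38 with a ratio of ratios of 10.7 (9.51 to 12). Its neighbour on chromosome 9 CDKN2A, encoding p16 and p14ARF, was at 384 then 274 CPM in DU145 and 111 then 240 CPM in PC-3, a difference of 1.59. RBL1, the pocket protein p107, was on the other side at 36.6 then 31.1 CPM in DU145 and 55.4 then 7.91 CPM in PC-3, a difference of −2.43. CDKN1C, the inhibitor p57, differed by 2.17. Of 14 such members 6 lay at 1 or above and 2 at −1 or below. Among 12 histone members 8 lay at 1 or above and 2 at −1 or below, with a median of 1.80. H2BC21, a gene of histone H2B, was at 26.8 then 14.9 CPM in DU145 and 18.5 then 78.9 CPM in PC-3, a difference of 2.84, while the variant genes H2AX and H2AZ1 differed by −1.98 and −1.10. Replication-dependent histone genes are near-identical copies of one another, and the split of reads among them is uncertain.

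The BCL2 family and death receptor list holds genes that promote apoptosis and genes that restrain it. Of its 28 members 8 lay at 1 or above, against 13.7% of all members, with a median of 0.37. At −1 or below were 2, which is near the 6.86% of all members. BMF, a BH3-only protein, was at 15.6 then 17.6 CPM in DU145 and 13.4 then 142 CPM in PC-3, a difference of 3.14. TNFSF10, the death ligand TRAIL and also an interferon target, was at 1.85 then 0.316 CPM in DU145 and 2.29 then 12 CPM in PC-3, a difference of 3.10 with a ratio of ratios of 30.6 (13.9 to 73.4). BBC3, the p53 target PUMA, lay at 8.88 then 8.54 CPM in DU145 and 1.5 then 12.4 CPM in PC-3, a difference of 2.48.

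Glycolysis and hypoxia genes had mostly negative differences. At least 2-fold higher with OICR-9429 in DU145 were 6 of 28 members, and at least 2-fold lower in PC-3 were 8. Over all members these shares were 1.01% and 8.37%. Of the 28 members 13 differed by −1 or below and 1 by 1 or above, with a median of −0.93 and median changes of 0.48 in DU145 and −0.49 in PC-3. Under the other scalings 16 and 17 differed by −1 or below. LDHA (ENSG00000134333), which turns pyruvate into lactate, was at 572 then 1305 CPM in DU145 and 2126.5 then 652 CPM in PC-3. The higher line swapped with treatment, and the difference was −2.89 with a ratio of ratios of 0.134 (0.131 to 0.138). PGK1, which makes ATP in glycolysis, was at 294 then 589 CPM in DU145 and 949 then 358 CPM in PC-3, a difference of −2.41. ANGPTL4, a secreted lipase inhibitor induced by hypoxia, was at 12 then 63.0 CPM in DU145 and 3.24 then 2.81 CPM in PC-3, so that its difference of −2.45 came from DU145. HK2, the first kinase of the pathway, was at 28.0 then 83.9 CPM in DU145 and 132 then 109 CPM in PC-3, a difference of −1.82. NDRG1, a stress and hypoxia gene, was the 1 member at 1 or above, of 5 above 0. It was at 214 then 443 CPM in DU145 and 453 then 2094 CPM in PC-3, a difference of 1.16 that dropped under 1 with either other scaling. Of 27 nuclear-encoded respiratory chain members none lay at 1 or above, against 13.7% of all members. At −1 or below were 2, which is near the 6.86% of all members.

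Growth factor feedback genes had mostly negative differences, 16 of 19 members lying under 0. At least 2-fold higher with OICR-9429 were 3 of the 19 in DU145 and 1 in PC-3, against 1.01% and 6.87% of all members. DUSP6, the phosphatase of ERK, was at 19 then 108 CPM in DU145 and 76.1 then 115 CPM in PC-3, a difference of −1.85, and the treated libraries were close. SPRY4, an inhibitor of receptor signalling, was at 17.0 then 43.9 CPM in DU145 and 182 then 110 CPM in PC-3, a difference of −2.04. CCND1, cyclin D1, was at 335 then 740 CPM in DU145 and 1007 then 507 CPM in PC-3, a difference of −2.13. Of 19 members 5 lay at −1 or below and 1, DUSP5 at 1.62, at 1 or above, with a median of −0.67. The 5 became 7 and 8 under the other scalings. PHLDA2, an imprinted growth regulator, lay at 19.2 then 90.6 CPM in DU145 and 82.3 then 62.5 CPM in PC-3, a difference of −2.57. Among 20 YAP and TEAD targets none lay at 1 or above and 4 at −1 or below, with a median of −0.41. The shares of all members were 13.7% and 6.86%. CCN2 (ENSG00000118523), a secreted matrix protein and classical YAP target, was at 31.6 then 37.7 CPM in DU145 and 83.9 then 8.38 CPM in PC-3, a difference of −3.42. Its relative CCN1 was at 941 then 500 CPM in DU145 and 559 then 97.3 CPM in PC-3, a difference of −1.60.

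Cholesterol genes stood at least 2-fold higher for 22 of 27 members in DU145 and 15 in PC-3, against 1.01% and 6.87% of all members. The median change was 1.35 in DU145 and 1.27 in PC-3 over 27 members, with a median difference of −0.20. By the difference 2 of the 27 lay at 1 or above and 4 at −1 or below, against 13.7% and 6.86% of all members. HMGCS1, which begins the pathway, was at 75.9 then 446 CPM in DU145 and 36.7 then 67.0 CPM in PC-3, a difference of −1.69. INSIG1, the sterol-sensing anchor, was at 37.3 then 237 CPM in DU145 and 29.2 then 151 CPM in PC-3, a difference of −0.31. SREBF2, the factor that drives the pathway, lay at 287 then 331 CPM in DU145 and 96.6 then 254 CPM in PC-3, a difference of 1.18 that dropped under 1 with median-of-ratios scaling. For fatty acid synthesis 3 of 16 members lay at −1 or below, with ELOVL6 and ACLY at −1.52 and −1.32.

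The members with the lowest values outside the replication list had varied functions. CPA4 (ENSG00000128510), a secreted carboxypeptidase, had the lowest difference of any member at −4.40. It was at 2.83 then 9.39 CPM in DU145 and 45.2 then 4.96 CPM in PC-3, with a ratio of ratios of 0.0331 (0.0240 to 0.0455). SCEL (ENSG00000136155), a protein of the cornified envelope, was at 16.7 then 71.4 CPM in DU145 and 4.37 then 0.432 CPM in PC-3, a difference of −3.94. The lines moved apart for SCEL, and exchanged places for CPA4. APLN (ENSG00000171388), the peptide ligand of the apelin receptor, was at 2.39 then 5.13 CPM in DU145 and 25.6 then 2.30 CPM in PC-3, a difference of −3.86. ESM1 (ENSG00000164283), a secreted proteoglycan, was at 0.435 then 2.64 CPM in DU145 and 43.1 then 8.63 CPM in PC-3, a difference of −3.54. MAP7D3 (ENSG00000129680), a microtubule protein, was at 73.1 then 50.2 CPM in DU145 and 11.5 then 0.108 CPM in PC-3, where the treated library held 3 fragments, so its ratio of ratios of 0.0137 has the wide interval of 0.00281 to 0.0404. KRTAP2-3 (ENSG00000212724), a hair keratin-associated protein with close paralogs, was at 0.181 then 2.85 CPM in DU145 and 5.32 then 0.504 CPM in PC-3, a difference of −3.78. MARCHF4 (ENSG00000144583), a membrane-bound ubiquitin ligase, lay at 28.3 then 42.0 CPM in DU145 and 27.4 then 2.48 CPM in PC-3, a difference of −3.58 from nearly equal levels with DMSO. FGF1 (ENSG00000113578), an acidic fibroblast growth factor, lay at 0.979 then 2.46 CPM in DU145 and 9.72 then 1.04 CPM in PC-3, a difference of −3.20.

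Immediate early and Krüppel-like factors lay on both sides. JUNB, an AP-1 subunit, lay at 84.3 then 55.7 CPM in DU145 and 53.1 then 219 CPM in PC-3, a difference of 2.61. ATF3, a stress-induced AP-1 partner, lay at 28.6 then 25.9 CPM in DU145 and 13.5 then 78.5 CPM in PC-3, a difference of 2.59. KLF4, a differentiation factor, was level between the lines with DMSO, at 20.6 and 20.5 CPM, and differed by 1.96 after treatment. Of 20 members of the AP-1 and EGR list 5 lay at 1 or above and 2 at −1 or below, with a median of 0.26. The shares of all members were 13.7% and 6.86%. Among 12 EGF receptor and ligand members 2 lay at 1 or above and 1 at −1 or below, which is near the 13.7% and 6.86% of all members. The last was HBEGF, a shed EGF receptor ligand, at 44.4 then 87.2 CPM in DU145 and 77.5 then 35.4 CPM in PC-3.

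Epithelial and matrix genes held both directions. ELF3, an epithelial ETS factor that also answers to inflammation, lay at 38.2 then 19.6 CPM in DU145 and 19.8 then 113.5 CPM in PC-3, a difference of 3.39. KRT80, a keratin of maturing epithelia, lay at 216 then 137 CPM in DU145 and 63.2 then 10.5 CPM in PC-3, lower with treatment in both lines, with a difference of −1.83. FN1, the matrix protein fibronectin, lay at 67.7 then 25.5 CPM in DU145 and 567 then 751 CPM in PC-3, so that the lines moved further apart by 1.78. Among 9 metalloproteinase and inhibitor members 1 lay at 1 or above and 2 at −1 or below, against 13.7% and 6.86% of all members. MMP15, a membrane-bound metalloproteinase, lay at 96.3 then 45.0 CPM in DU145 and 7.30 then 15.5 CPM in PC-3, a difference of 2.08, and PLAT, tissue plasminogen activator, lay at 4.35 then 4.11 CPM in DU145 and 202 then 61.4 CPM in PC-3, a difference of −1.64.

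Genes that answer to metals, glucose and steroids gave smaller groups. Of 6 metallothionein and zinc members 3 lay at 1 or above, with MT1F at 2.09 and MT2A at 1.32, although metallothionein copies are near identical and can share reads. Of 15 members of the MYC network and arrestin list 5 lay at 1 or above and none at −1 or below. MXI1, an antagonist of MYC, lay at 51.0 then 35.3 CPM in DU145 and 17.9 then 69.6 CPM in PC-3, a difference of 2.42. TXNIP, which restrains glucose uptake, lay at 59.6 then 4.68 CPM in DU145 and 96.4 then 32.0 CPM in PC-3, lower with treatment in both and less so in PC-3, a difference of 1.85. FKBP5, a cochaperone induced by steroid receptors, lay at 128 then 133 CPM in DU145 and 39.8 then 9.68 CPM in PC-3, a difference of −1.99.

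Other members moved in opposite directions by at least 2-fold in each line on the deposited scale. NGFR, the low-affinity neurotrophin receptor, was at 2.57 then 0.281 CPM in DU145 and 0.307 then 2.95 CPM in PC-3, a difference of 3.08. It was low in every library, and over the alternatives its difference ran from 1.1 to 5.71. HSD17B14, a steroid dehydrogenase, was at 15.3 then 4.96 CPM in DU145 and 10.9 then 39.2 CPM in PC-3, a difference of 3.20. NAV3, a neuron navigator protein, was at 18 then 45.1 CPM in DU145 and 28.0 then 9.68 CPM in PC-3, a difference of −2.72. ESRP1, an epithelial splicing factor, was at 11.6 then 4.54 CPM in DU145 and 3.99 then 9.25 CPM in PC-3, a difference of 2.23.

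Noncoding transcripts leaned to the positive side. Among 360 lincRNA members 96 lay at 1 or above and 26 at −1 or below, with a median of 0.39, and among 445 antisense members 93 and 18 with a median of 0.44. The 11906 protein-coding members had 1529 and 841, with a median of 0.09. Median difference also varied with level, from 0.37 in the lowest of 5 classes to −0.10 in the highest, and noncoding transcripts are mostly low. NEAT1 (ENSG00000245532), the scaffold RNA of paraspeckles, was at 830 then 367 CPM in DU145 and 131 then 751 CPM in PC-3, a difference of 3.69 with a ratio of ratios of 13.0 (12.4 to 13.5). LINC-PINT, a p53-responsive transcript, was at 9.46 then 4.04 CPM in DU145 and 19.3 then 64.5 CPM in PC-3, a difference of 2.74. LOXL1-AS1 was on the other side at 11.6 then 8.19 CPM in DU145 and 364 then 43.6 CPM in PC-3, a difference of −2.58. The sources used here do not say whether counting used strand, so an antisense transcript and its partner cannot be told apart.

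The lines differed widely with DMSO. PC-3 stood at least 2-fold above DU145 for 1458 members (10.7%) and at least 2-fold under it for 2855 (21%), with 2592 and 1742 under median-of-ratios scaling and 2372 and 1886 under TMM scaling, which moved the median of the gap by 0.41 and 0.34. SRGN, the proteoglycan of secretory granules, was at 1.12 CPM in DU145 and 508 CPM in PC-3, a gap of 7.91, the highest of any member. ANPEP, a membrane aminopeptidase, was at 1.59 CPM in DU145 and 545 CPM in PC-3. FZD8, a Wnt receptor, was at 1.23 then 1.09 CPM in DU145 and 451 then 907 CPM in PC-3. On the other side AKR1B1, aldose reductase, was at 600 CPM in DU145 and 2.08 CPM in PC-3, a gap of −7.61, the lowest of any member. EREG, a ligand of the EGF receptor, was at 402 CPM in DU145 and 1.16 CPM in PC-3, and CTNNA1, α-catenin of adherens junctions, at 499 and 2.73 CPM. Gaps of this width were seen with treatment too. PI3, an elastase inhibitor, had a gap of 7.2 with DMSO and 6.89 with OICR-9429, FST, follistatin, 7.01 and 7.06, and SLIT2, an axon guidance ligand, 6.88 and 6.84. LMO3, a LIM-domain cofactor, had −6.66 and −6.20, and TGFBI, a matrix protein induced by TGF-β, −6.33 and −5.65.

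Several gene groups had a gap between the lines that changed side or closed with OICR-9429. The gap with DMSO and the difference of the response share the DMSO libraries, and the gap with OICR-9429 is their sum by arithmetic, so the values are given side by side and no relation is drawn between them. Interferon effectors had a median gap of −0.43 with DMSO and 2.16 with OICR-9429, and the first came to −0.04 under median-of-ratios scaling. Replication genes had 0.34 and −1.06, glycolysis genes 0.40 and −0.75, and large ribosomal subunit genes −0.57 and 0.38, each pair keeping its signs under both other scalings. Integrated stress response genes had −1.20 and −0.08, and the second turned to 0.09 and 0.10 under the other scalings. Over all members the median gap was −0.23 with DMSO and −0.09 with OICR-9429.

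**Figure D3:**
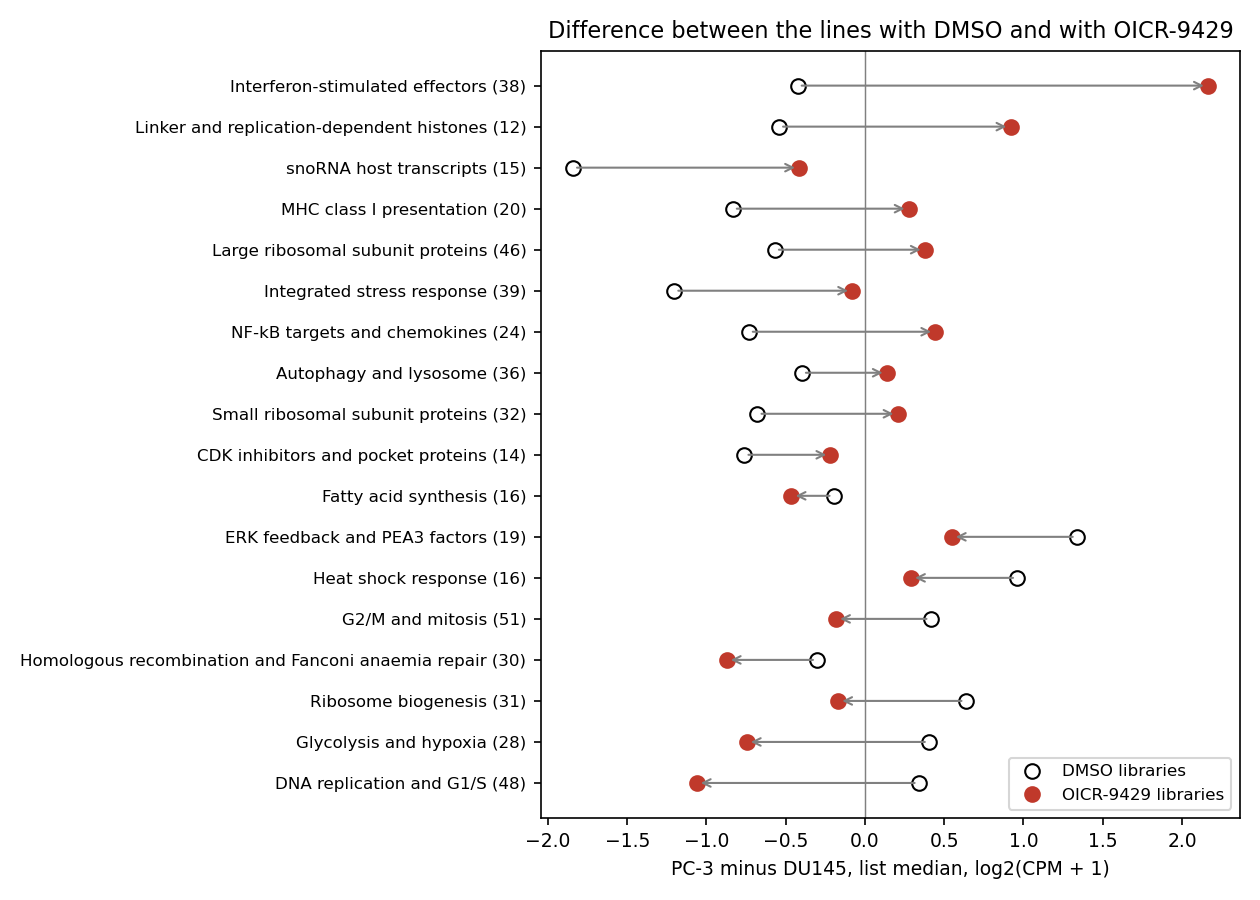
Median gap between the lines (log2 of CPM + 1, PC-3 minus DU145) for 18 gene lists with at least 10 members, those with the 10 highest and 8 lowest median differences of the response. Open points are the DMSO libraries and red points the OICR-9429 libraries; the interferon effector median runs from −0.43 to 2.16 and the replication median from 0.34 to −1.06.

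Several other lists had few members past 2-fold or members on both sides, to be read against 13.7% of all members at 1 or above and 6.86% at −1 or below. On the deposited scale none of the 25 members of WDR5-containing complexes reached 1 or −1, with values from −0.96 to 0.71. Under either other scaling 1 lay at −1 or below. The median of this list, 0.06, turned to −0.10 and −0.16 under the other scalings. The lowest of the 25 was HCFC1, a WDR5 partner, at −0.96 on the deposited scale. MYC, whose recruitment to chromatin involves WDR5, was at 118 then 108 CPM in DU145 and 262 then 186 CPM in PC-3, a difference of −0.36. Among 20 HOX members 2 lay at 1 or above and 2 at −1 or below. The ABC and platinum transporter list, of interest for drug resistance, had 1 of 14 on each side. Mesenchymal and epithelial marker lists had 2 of 19 and 6 of 21 members at 1 or above and 3 in each at −1 or below, and the mesenchymal median of 0.07 turned to −0.09 and −0.15 under the other scalings.

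**Figure D4:**
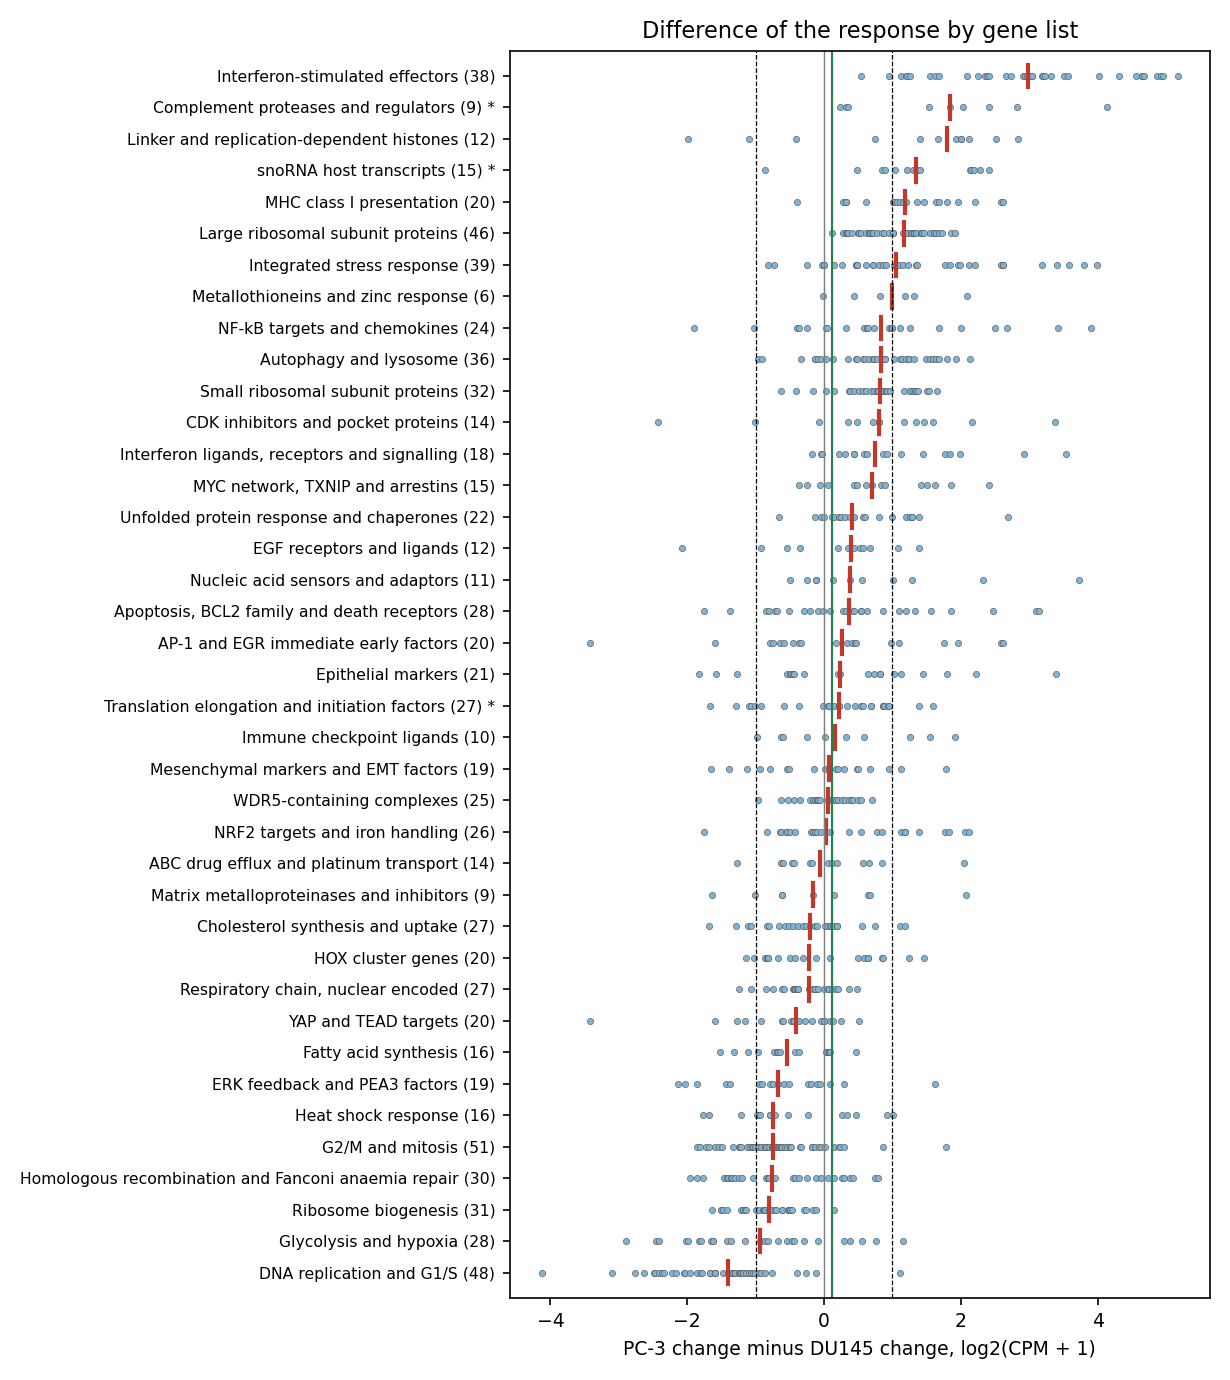
Difference of the response (log2 of CPM + 1, PC-3 change minus DU145 change) for the members of the gene lists, 1 point per gene, with the list median as a red bar, the median of all 13566 genes (0.12) as a green line and −1 and 1 as dashed lines. Lists marked with an asterisk were drawn up after these values had been seen, and the others with earlier results of these data known. Interferon effectors have the highest median, 2.98, and DNA replication genes the lowest, −1.40.

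The threshold of 1 cut through a continuous range. TMEM60, HSF4 and PIGO lay just inside 1 and ASMTL-AS1, LINC00205 and RAD9A just outside, while SHISAL1, THRAP3 and ARHGAP22 lay just inside −1 and KIF26B, PSMD6 and INPP5B just outside. The median difference was higher in genes rich in G and C, from 0.00 in the lowest of 5 classes to 0.33 in the highest, and lay at 0.11 to 0.13 in every class of length. The part of base composition in the results above was not tested.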

How the data were processed

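Total RNA was isolated with Trizol and RNeasy columns, per the labels' protocols. Reads were handled with HISAT2 2.1.0, HTSeq 0.6.1, bcl2fastq 2.19.1 and the genome build hg19, per the submitters' processing notes, which give no order or settings. The authors deposited 1 table per line. Its header says that values are normalized and gives no unit, and the deposited values were taken as CPM because each column sums to 999788 to 999896. All values (100%) lay within 0.01 step of a whole multiple. Steps were even apart from 111 to 519 single steps per library, which were taken as 0, so 2 steps were counted as 1 fragment.

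Here log2(CPM + 1) was compared for genes that reached 1 CPM in both lines. Intervals (95%) on the ratio of ratios are exact conditional intervals on fragments. TMM factors came from edgeR 4.0.16 in R 4.3.3, and the rest from Python 3.11.15 with pandas 2.3.3. The calculation was tested on simulated data. Alternatives were other scalings, pseudocounts of 0.1 and 5, other minimum levels and centring by level.

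Genes were named by a rule: the 15 highest and 15 lowest, up to 4 per list, the 5 most opposite in each direction and the 10 widest gaps between the lines on each side, reaching 5 CPM, not all of which are printed. E2F1, E2F7, CCNB1, HK2, NDRG1, PHLDA2, IRF1, JAK1, INSIG1, ISG15, OAS3, IFITM3, HERC6, PPM1K, RPL29, CXCL1, CSF2, H2AX, H2AZ1, TAP2, other class I genes and the noncoding RNAs outside the lists were named after their values were seen, as was the pyrimidine start. The members and lists were chosen with earlier results of these data known. The labels do not say whether libraries came from separate cultures. A few members and a list that rests on one of them are not reported here.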

Additional observations from a re-analysis of the deposited data

Results flagged for a closer look

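On the deposited scale the members below stood at least 2-fold higher with OICR-9429 in 1 line and at least 2-fold lower in the other, or lie among lists whose median moved to opposite sides. The other scalings moved the DU145 change by 0.19 and 0.24. Members near −1 in DU145, such as TNFSF10 with a DU145 change of −1.11, need not stay 2-fold lower there. With 1 library a group none of these differences was tested, and they are given as values of the difference of the response (PC-3 change minus DU145 change, log2).

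Of 49 members higher in PC-3 and lower in DU145, those reached by the naming rule or named besides were BST2 at 5.17, GBP4 at 4.27, C1S at 4.14, NEAT1 at 3.69, CCL20 at 3.42, HSD17B14 at 3.20, TNFSF10 at 3.10, NGFR at 3.08, C1R at 2.82, LINC-PINT at 2.74, PSMB9 at 2.62, HLA-F at 2.59, IL6 at 2.49, ESRP1 at 2.23 and GAS5 at 2.19. BST2 and GBP4 are interferon effectors, as are OAS3 at 3.18 and IFITM3 at 2.94, which also moved to opposite sides by 2-fold, and C1S and C1R are neighbouring complement genes.

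Of 15 members lower in PC-3 and higher in DU145, the same rule gave CPA4 at −4.40, SCEL at −3.94, KRTAP2-3 at −3.78, ESM1 at −3.54, LDHA at −2.89, ACOX2 at −2.76, NAV3 at −2.72 and PGK1 at −2.41. ACOX2 (ENSG00000168306), a peroxisomal oxidase of bile acid synthesis, was at 4.10 then 9.42 CPM in DU145 and 10.7 then 2.55 CPM in PC-3, with a ratio of ratios of 0.103 (0.0725 to 0.147).

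Many lists had median changes of opposite sign in the lines. The 3 lists added after these values were seen are left out here, and the others were chosen with earlier results of these data known. Those whose median difference also reached 1 on the deposited scale were interferon effectors (2.98), MHC class I presentation (1.18), large ribosomal subunit proteins (1.17) and histones (1.80). Under median-of-ratios scaling MHC class I presentation came to 0.96 and large ribosomal subunit proteins to 0.94, and under TMM scaling to 1.01 and 1. The DU145 median of the histones turned to 0.01 under median-of-ratios scaling.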

How the results depend on the processing

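No paired analysis was possible because each group holds 1 library, and no replicate could be left out for the same reason. None of the 192 genes past 2-fold among the 245 for which alternatives were computed changed sign under any of the 7. Other genes named in the text were not recomputed. With median-of-ratios scaling 1494 members lay at −1 or below and 160 at −2 or below, and the median difference was −0.088. At baseline 2592 members were at least 2-fold higher in PC-3 and 1742 at least 2-fold lower with that scaling, against 2372 and 1886 with TMM, under which the median difference was −0.034. Centring by level made that median 0 by construction. With a pseudocount of 5, 975 members lay at 1 or above, 607 at −1 or below, 121 at 2 or above and 47 at −2 or below, and with 0.1, 557 lay at 2 or above and 171 at −2 or below. With a minimum of 5 CPM 1236 lay at 1 or above, since fewer genes were tested. Of 40 lists 33 kept the sign of their median in all 7 alternatives, and of 192 named genes past 2-fold 159 stayed past it in all.

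Depth limits the lowest genes: 3 fragments correspond to 0.102 to 0.109 CPM, and ratios for BST2, MAP7D3, GBP4 and KRTAP2-3 rest on counts near it. The pseudocount of 1 shrinks differences of genes near 1 CPM. BST2, KRTAP2-3 and NGFR reached 1 CPM in only 1 library of each line, so the filter took them in through their high libraries. Counting intervals hold no variation between cultures.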

Other observations

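Further interferon-induced genes did not reach 1 CPM in a library of DU145 and so were outside the comparison. RSAD2, the antiviral enzyme viperin, was at 0.652 then 0.527 CPM in DU145 and 1.09 then 99.8 CPM in PC-3. IFI44L was at 0.906 then 0.176 CPM in DU145 and 13.8 then 334 CPM in PC-3. IFITM1, which blocks viral entry, was at 0.725 then 0.246 CPM in DU145 and 2.08 then 57.2 CPM in PC-3. SP110, a nuclear body protein, was at 0.507 then 0.352 CPM in DU145 and 11.4 then 50.7 CPM in PC-3. In each of these treated PC-3 was the highest library. IFNB1, the gene of interferon beta, stayed low in all 4 libraries, at 0.0725 then 0.211 CPM in DU145 and 0.102 then 0.863 CPM in PC-3.

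Several well-known genes were near the floor in 1 line. IL1B was at 0.254 then 0.141 CPM in DU145 and 541 then 414 CPM in PC-3. EGR1, an immediate early factor, was at 74.5 CPM in DU145 with DMSO, and in PC-3 at 0.102 then 0.144 CPM. HOXB13, a prostate homeobox gene, was listed in PC-3 alone at 253 then 183 CPM, as was CDH2, the cadherin of mesenchymal cells, at 160 then 124 CPM. STAT3 was listed in DU145 alone, at 379.5 then 352 CPM, and PC-3 is known for a deletion that covers this gene.

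Members of the same direction lay side by side on several chromosomes. On chromosome 19 the 5 neighbouring members DBP, CA11, NTN5, FUT2 and MAMSTR lay at 1 or above and the 4 zinc finger genes ZNF430, ZNF714, ZNF431 and ZNF708 at −1 or below. On chromosome 10 the aldo-keto reductase genes AKR1C1, AKR1C2 and AKR1C3, which are close paralogs and can share reads, lay at 1 or above.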
